A study of Mus musculus with 6 samples.

Results

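The data on 10 receptors of the tumor necrosis factor (TNF) receptor superfamily that T cells can carry were examined in splenic CD4+ T cells sorted on surface Lrig1. The members were named by gene symbol (*Tnfrsf4*, *Tnfrsf9*, *Tnfrsf18*, *Tnfrsf1b*, *Tnfrsf8*, *Cd27*, *Tnfrsf14*, *Tnfrsf1a*, *Tnfrsf25* and *Fas*), and all 10 were found among the 45777 genes listed. CD4+Lrig1+ and CD4+Lrig1- T cells came from the spleens of female C57BL/6 mice of 7 weeks of age, with no treatment or transgene named for these samples. The labels describe 6 samples, 3 for each group. Another table holds 2 further libraries whose columns do not name their group, and these were not analysed here. The 4 libraries that were lie in 2 tables, called set 1 and set 2, each of which holds 1 CD4+Lrig1+ and 1 CD4+Lrig1- library. What the sets share (mice, day of sorting or sequencing run) is not stated, and although the study describes its data as independent experiments or samples, which mice gave which library is not stated. The p-values measure only the spread between these libraries.

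The libraries held between 44865070 and 59977951 estimated counts, which were expressed as CPM (counts relative to a library size scaled by the trimmed mean of M-values, TMM). Log2 CPM correlated across genes with r = 0.960 and 0.959 between the groups of a set, and with r = 0.908 between the sets in either group, so the sets stood farther apart than the groups did. The T cell genes *Cd3d*, *Cd3e*, *Cd3g*, *Cd4*, *Trac* and *Lck* summed to 3491 CPM and more in every library. B cell markers (7 genes) summed to 65.2 CPM in CD4+Lrig1- and 85.9 CPM in CD4+Lrig1+ cells of set 1, and to 670 and 348 CPM in set 2. Myeloid markers summed to between 36.9 and 166 CPM, natural killer cell markers to between 28.6 and 67.9 CPM and CD8 genes to between 14.1 and 97.3 CPM, with the highest values of all these in set 2 and no marker at 0 in any library. Within the myeloid list, *Csf1r* was higher in CD4+Lrig1+ cells (6.39 and 13.2 CPM in set 1, 32.2 and 65.9 CPM in set 2), as was *Cd14* at low levels. *Itgam* was lower (10.2 and 4.38 CPM, then 14.6 and 4.46 CPM), and *Lyz2*, *Cd68* and *Adgre1* differed in direction between the sets. Within the natural killer cell list, *Klrb1c* was lower in CD4+Lrig1+ cells (21.9 and 6.29 CPM in set 1, 46.7 and 13.6 CPM in set 2), as were *Klre1*, *Klra8* and *Ncr1*, while *Eomes*, which T cells also express, was higher (4.20 and 24.1 CPM, then 9.18 and 41.3 CPM). The part of these markers in the receptors' differences was not tested. *Lrig1* itself, the gene of the sorted protein, had 75.4 and 221 CPM in CD4+Lrig1- and CD4+Lrig1+ cells of set 1, and 36.7 and 129 CPM in set 2. The 6 regulatory T (Treg) cell markers *Foxp3*, *Il2ra*, *Ctla4*, *Ikzf2*, *Ikzf4* and *Icos* summed to 259 CPM in CD4+Lrig1- against 2176 CPM in CD4+Lrig1+ cells of set 1, and to 172 against 1791 CPM in set 2.

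TNF receptors are transmembrane proteins that cluster when they bind ligands of the TNF superfamily, which are mostly trimers on the surface of other cells. One class recruits TNF receptor-associated factors (TRAFs) and the cellular inhibitors of apoptosis (cIAPs) and drives NF-kB, a transcription factor family that supports the survival and division of T cells. The other class carries a death domain in its cytoplasmic tail, through which it can also start caspase-8 signalling. OX40, 4-1BB, GITR and TNFR2 are well known on Treg cells, on which they can be present without recent stimulation, and all are induced on conventional T cells by antigen.

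Most of the receptor genes share a chromosome. On GRCm38, 7 of the 10 were on chromosome 4 within 10.8 Mb, where *Tnfrsf1b* (145212368-145246870, minus strand) and *Tnfrsf8* (145267132-145315164, minus strand) were 20.3 kb apart, and *Tnfrsf4* (156013595-156016613, plus strand) and *Tnfrsf18* (156026322-156028894, plus strand) were 9.71 kb apart. The others on chromosome 4 were *Tnfrsf9* (150920155-150946104, plus strand), *Tnfrsf25* (152115528-152120119, plus strand) and *Tnfrsf14* (154918487-154928620, minus strand). *Cd27* (125232620-125237136, minus strand) and *Tnfrsf1a* (125349723-125362483, plus strand) were on chromosome 6 and *Fas* (34290647-34327775, plus strand) on chromosome 19. *Tnfrsf9* lies inside *Camta1*, *Cd27* inside *Vamp1* and *Tnfrsf18* beside an antisense gene, all on opposite strands, and the start of *Tnfrsf4* meets the end of *Sdf4* on the same strand. The kit marked strand, but whether the counting used it is not stated. *Camta1* (34.5 and 25.0 CPM in CD4+Lrig1- and CD4+Lrig1+ cells of set 1, 5.48 and 4.72 CPM in set 2) and *Vamp1* (87.4 and 62.4 CPM, then 6.15 and 3.29 CPM) were lower in CD4+Lrig1+ cells of both sets, and *Sdf4* had log2 ratios of 0.42 and 0.41.

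Promoter sequence from RefSeq (GRCm38.p6) was held for all 10 receptors, but not for all of their starts. It came as 12 windows running from 250 bases before to 50 bases after a transcript start. They were searched on both strands for the NF-kB consensus, the AP-1 site TGANTCA, the TATA box TATAAA and the GC box GGGCGG. The 4 windows printed here are those of the receptors with the largest differences between the groups, *Tnfrsf8*, *Tnfrsf4* and *Tnfrsf9*, the last with the 2 of its 4 annotated starts for which a window was held. Each is written 5′ to 3′ on the strand of its gene, with NF-kB matches in capitals.
Tnfrsf9, downstream start (chr4:150927749-150928048, plus strand): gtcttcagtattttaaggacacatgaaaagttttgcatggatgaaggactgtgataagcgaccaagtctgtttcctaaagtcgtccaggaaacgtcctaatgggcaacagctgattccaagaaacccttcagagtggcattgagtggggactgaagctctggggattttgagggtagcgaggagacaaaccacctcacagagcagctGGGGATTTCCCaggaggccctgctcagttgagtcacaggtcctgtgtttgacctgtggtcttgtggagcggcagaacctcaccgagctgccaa
Tnfrsf9, upstream start (chr4:150919905-150920204, plus strand): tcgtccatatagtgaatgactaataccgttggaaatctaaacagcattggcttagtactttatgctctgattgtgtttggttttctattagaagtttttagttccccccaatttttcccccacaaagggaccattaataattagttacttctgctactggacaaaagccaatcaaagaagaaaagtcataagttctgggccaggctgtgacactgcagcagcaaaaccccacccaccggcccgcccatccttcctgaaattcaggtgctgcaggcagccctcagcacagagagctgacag
Tnfrsf8 (chr4:145315115-145315414, minus strand): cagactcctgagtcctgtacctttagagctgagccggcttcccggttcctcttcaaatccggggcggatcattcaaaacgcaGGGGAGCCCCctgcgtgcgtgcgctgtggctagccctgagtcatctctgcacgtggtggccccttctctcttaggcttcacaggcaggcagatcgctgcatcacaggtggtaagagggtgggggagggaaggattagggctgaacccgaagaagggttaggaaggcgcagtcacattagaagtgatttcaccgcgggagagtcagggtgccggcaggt
Tnfrsf4 (chr4:156013445-156013744, plus strand): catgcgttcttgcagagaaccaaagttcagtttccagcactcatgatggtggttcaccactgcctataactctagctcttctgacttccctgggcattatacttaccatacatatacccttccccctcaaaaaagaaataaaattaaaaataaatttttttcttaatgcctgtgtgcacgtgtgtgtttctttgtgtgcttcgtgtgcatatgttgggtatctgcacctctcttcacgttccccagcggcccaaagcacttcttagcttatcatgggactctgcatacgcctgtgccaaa

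The window of the downstream *Tnfrsf9* start held overlapping NF-kB matches on both strands, the first at 43 bases before the start, and an AP-1 match at 15 bases before it. The upstream *Tnfrsf9* window held neither. The *Tnfrsf8* window held 1 NF-kB match, at 168 bases before the start on the opposite strand, 1 AP-1 match and 1 GC box. No other window held an NF-kB match, so 2 of 12 windows held one, against 4.51% of the 32851 promoter windows of all genes. AP-1 matches were in 3 of 12 windows (7.81% of all), GC boxes in 5 of 12 (35.7% of all) and the TATA box in 0 of 12 (13.6% of all). The *Tnfrsf4*, *Tnfrsf18*, *Cd27*, *Tnfrsf14* and *Tnfrsf1a* windows held none of the 4 motifs. The *Tnfrsf14* window did not reach its start at 154928620, which held 46.6% to 77.2% of its counts in the 4 libraries. Neither *Tnfrsf25* window reached the start at 152115528, with 64.5% to 74.3% of its counts. Motifs at these starts were not searched. A match is a string of letters in these windows, and no binding was measured.

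The question put to the receptors was how their transcripts differ between CD4+Lrig1+ and CD4+Lrig1- T cells. The quasi-likelihood F-test of edgeR was run on 16123 genes, with p-values adjusted over all of them by the Benjamini-Hochberg method, first by group alone and then with the set as a further term (the table block). By group alone, none of the 10 receptors passed an adjusted p of 0.05, and neither did any gene (0% higher and 0% lower), although 674 genes were higher and 227 lower at an unadjusted p under 0.05, 5 of the receptors among them. With the table block, which leaves 1 residual degree of freedom and on simulated data called unchanged genes more often than its threshold allows, 7 receptors were called higher in CD4+Lrig1+ cells and 1 lower, against 14.6% and 12.8% of all genes. The verbs "rose" and "fell" refer to calls with the table block from here on. The SE beside each log2 fold change was worked back from the F statistic of the fit with the table block. That statistic takes part of its spread from other genes, so the SE can be narrower than the spread between the 2 sets. With 2 libraries against 2, the smallest p an exact permutation test can give is 0.333. Since these are bulk samples, more cells of a type and more RNA per cell cannot be told apart.

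**Figure D1:**
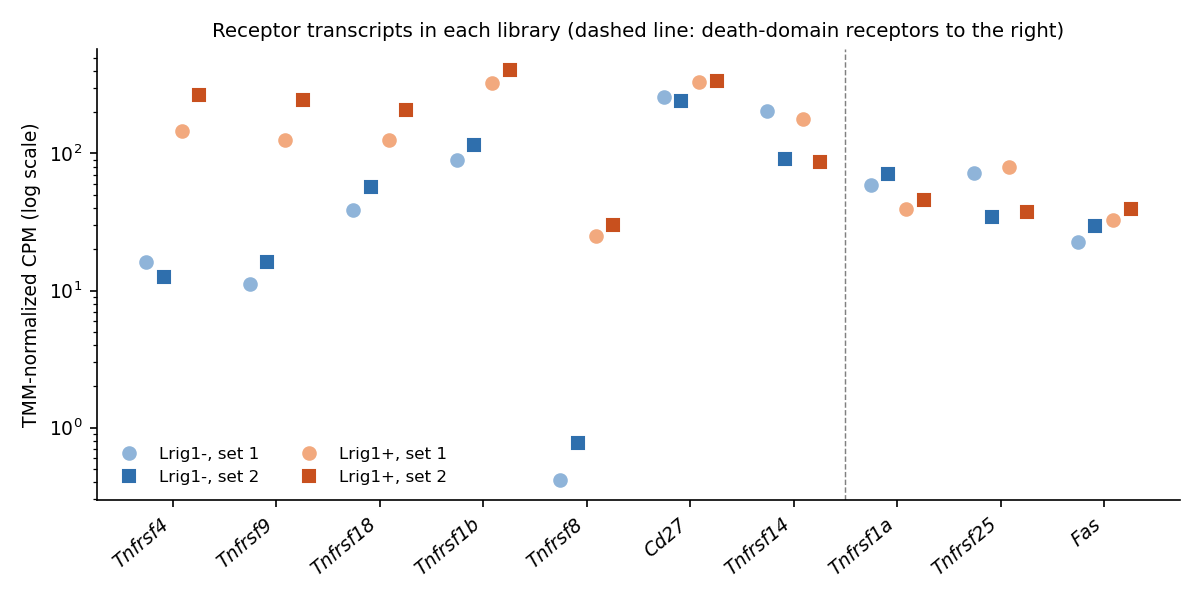
TMM-normalized CPM (log axis) of the 10 receptors in the 4 libraries, blue for CD4+Lrig1- and orange for CD4+Lrig1+ cells, circles for set 1 and squares for set 2, each point 1 library. For *Tnfrsf8* the groups lie farthest apart (0.418 and 0.778 against 24.9 and 30.2 CPM), while for *Tnfrsf14* and *Tnfrsf25* the sets lie farther apart than the groups.

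*Tnfrsf8* encodes CD30, a receptor of activated lymphocytes. It had 0.418 and 0.778 CPM in the CD4+Lrig1- libraries of sets 1 and 2, which are 20 and 42 counts, and 24.9 and 30.2 CPM in the CD4+Lrig1+ libraries. Both CD4+Lrig1- libraries were low and both CD4+Lrig1+ libraries far above them. *Tnfrsf8* rose by a log2 fold change of 5.52 ± 0.18 (SE; adjusted p = 4.80e-06 with the table block, 0.501 by group alone). Its size depends on the offset, since at these low levels limma gave 2.87 on log2(FPKM + 1) and 4.91 on log2(FPKM + 0.1). The DESeq2 Wald test with the table block gave an SE of 0.30. By its mean log2 ratio over the sets, *Tnfrsf8* ranked 17 of the 16123 genes.

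*Tnfrsf4* encodes OX40, which sustains the survival of T cells after antigen. Its level was 16.2 and 12.6 CPM in the CD4+Lrig1- libraries and 144.8 and 266 CPM in the CD4+Lrig1+ libraries of sets 1 and 2. The groups did not overlap, and the difference was 8.92-fold in set 1 and 21.1-fold in set 2 (ratios of CPM with a prior count of 2), the least even pair of ratios among the receptors. *Tnfrsf4* rose by a log2 fold change of 3.78 ± 0.26 (SE; adjusted p = 9.82e-05 with the table block, 0.501 by group alone). With robust dispersion estimates the same test with the table block gave an SE of 0.48 and an adjusted p of 0.0591, which ends the call. The DESeq2 Wald test with the table block gave an SE of 0.61.

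*Tnfrsf9* encodes 4-1BB, another costimulatory receptor. It had 11.1 and 16.2 CPM in the CD4+Lrig1- libraries, and 125 and 246 CPM in the CD4+Lrig1+ libraries. The folds were 11.2 in set 1 and 15.1 in set 2, with no overlap between the groups. *Tnfrsf9* rose by a log2 fold change of 3.72 ± 0.12 (SE; adjusted p = 4.80e-06 with the table block, 0.513 by group alone).

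*Tnfrsf1b* and *Tnfrsf18* had smaller folds. *Tnfrsf1b*, the gene of TNFR2, had 90.0 and 114 CPM in the CD4+Lrig1- libraries against 326 and 407 CPM in the CD4+Lrig1+ libraries. Its folds of 3.62 and 3.56 were almost equal in the 2 sets, and *Tnfrsf1b* rose by 1.85 ± 0.08 (SE) on the log2 scale (adjusted p = 1.28e-05 with the table block, 0.627 by group alone). *Tnfrsf18*, the gene of GITR, had 38.9 and 56.5 CPM against 125 and 208 CPM. It rose by 1.78 ± 0.08 (SE) on the log2 scale (adjusted p = 1.58e-05 with the table block, 0.649 by group alone).

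*Cd27* encodes a receptor that resting T cells already carry and that binds CD70. It was high in every library, with 257 and 239 CPM in CD4+Lrig1- and 333 and 337 CPM in CD4+Lrig1+ cells. The groups did not overlap, and *Cd27* rose by 0.43 ± 0.08 (SE) on the log2 scale (adjusted p = 0.00799 with the table block, 1.00 by group alone). *Tnfrsf14* encodes HVEM, which binds both the ligand LIGHT and the inhibitory receptor BTLA. It had 205 and 178 CPM in CD4+Lrig1- and CD4+Lrig1+ cells of set 1, and 90.9 and 86.6 CPM in set 2. The groups overlapped. Its log2 difference of set 2 from set 1 was -1.17 in CD4+Lrig1- cells, against a log2 fold change between the groups of -0.14 ± 0.08 (SE) that was not called (adjusted p = 0.224 with the table block). Its set 2 log2 ratio was -0.07 by CPM, and became 0.03 when scaled by library total.

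Of the 3 death-domain receptors, 1 fell, 1 rose and 1 was not called. *Tnfrsf1a*, the gene of TNFR1, had 58.4 and 70.3 CPM in the CD4+Lrig1- libraries and 39.6 and 45.6 CPM in the CD4+Lrig1+ libraries. Both CD4+Lrig1+ libraries were below both others, and *Tnfrsf1a* fell, with a log2 fold change of -0.59 ± 0.08 (SE; adjusted p = 0.00153 with the table block, 1.00 by group alone). *Fas*, whose product removes activated T cells, had 22.5 and 29.4 CPM against 32.5 and 39.1 CPM and rose by 0.47 ± 0.09 (SE) on the log2 scale (adjusted p = 0.00821 with the table block). *Tnfrsf25*, the gene of DR3, had 71.8 and 79.0 CPM in CD4+Lrig1- and CD4+Lrig1+ cells of set 1, and 34.3 and 37.5 CPM in set 2. The sets differed more than the groups did, and *Tnfrsf25* was not called (log2 fold change 0.13 ± 0.08 (SE), adjusted p = 0.241 with the table block).

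**Figure D2:**
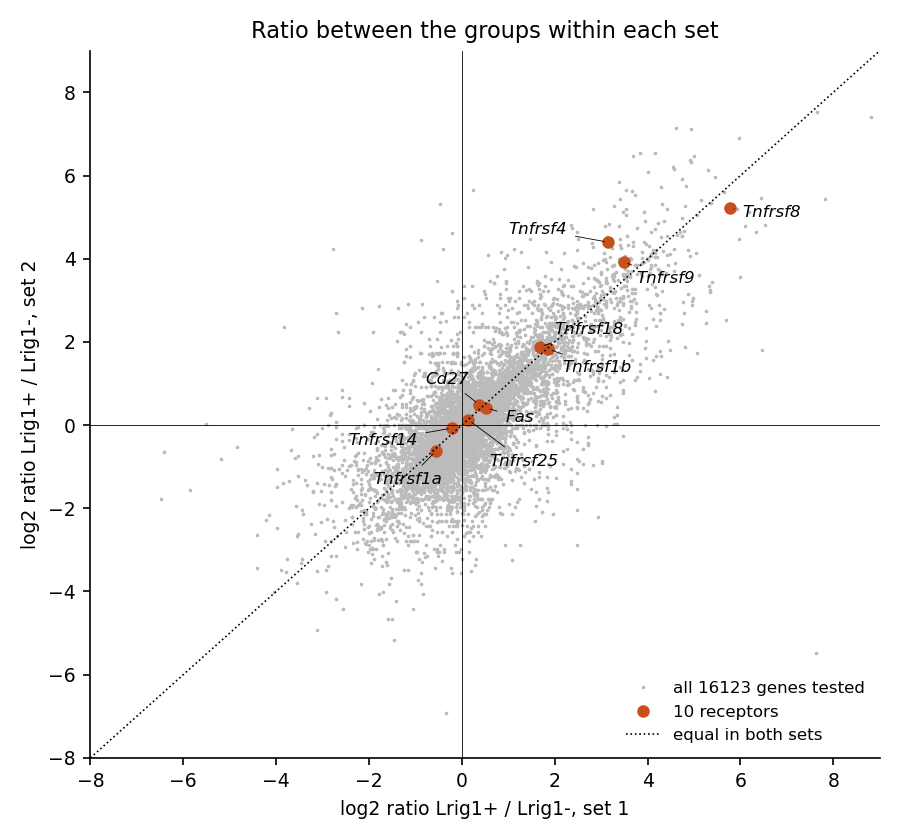
Log2 ratio of CD4+Lrig1+ to CD4+Lrig1- cells in set 1 (horizontal axis) and set 2 (vertical axis) for the 10 receptors (orange) and all 16123 genes tested (grey), with a dotted line where the sets are equal. *Tnfrsf8*, *Tnfrsf4* and *Tnfrsf9* lie at the upper right, *Tnfrsf4* above the line at 3.16 and 4.40, and *Tnfrsf1a* lies at the lower left at -0.56 and -0.62.

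Across the 10 receptors, 8 were higher in CD4+Lrig1+ cells in both sets and 2 lower in both, where 36.5% and 41.3% of all genes were. Both CD4+Lrig1+ libraries were above both CD4+Lrig1- libraries for 7 receptors and below them for 1, against 14.3% and 11.8% of all genes. The median of the mean log2 ratio was 1.13 over the receptors and -0.03 over all genes. Scaled by library total, the median log2 ratio of all genes went from 0.01 to 0.02 in set 1 and from -0.06 to 0.03 in set 2, while ratios of single genes shifted by a median of 0.10 in set 2, and *Tnfrsf14* was the receptor whose sign changed with it. All 6 Treg markers named above rose with these receptors, where 14.6% of all genes rose, and none was called by group alone. The log2 fold changes were 3.95 ± 0.18 (SE) for *Foxp3* and 4.05 ± 0.22 (SE) for *Il2ra* (adjusted p = 1.57e-05 and 3.39e-05 with the table block, 0.501 for both by group alone). The part of the Treg markers in the receptors' differences was not tested.

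Per transcript length, the order of the receptors differed between the groups. In TPM, a unit scaled for transcript length and library size, *Cd27* led in both CD4+Lrig1- libraries at 414 and 214 TPM and *Tnfrsf8* was last at 0.308 and 0.317 TPM. Differences between the sets in TPM did not follow those in CPM, since *Cd27* had 257 and 239 CPM in these CD4+Lrig1- libraries. TPM levels are therefore to be compared within a set. *Tnfrsf4* was 8th of 10 in both CD4+Lrig1- libraries (35.0 and 15.0 TPM), and it was 2nd in the CD4+Lrig1+ library of set 1 (306 TPM) and 1st in that of set 2 (346 TPM). In set 1, *Tnfrsf4* and *Tnfrsf18* were level in CD4+Lrig1+ cells at 306 and 303 TPM. *Tnfrsf4*, *Cd27* and *Tnfrsf18* followed each other within 346 and 308 TPM in the CD4+Lrig1+ library of set 2, and *Cd27* led these in set 1 at 520 TPM.

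The balance between the receptors of TNF changed sides in TPM, but not in CPM, which is not scaled for transcript length. By CPM *Tnfrsf1b* was above *Tnfrsf1a* in every library, at 90.0 and 114 against 58.4 and 70.3 CPM in the CD4+Lrig1- libraries. *Tnfrsf1b* stood at 0.676 and 0.713 times *Tnfrsf1a* in TPM in the CD4+Lrig1- libraries of sets 1 and 2, and at 3.62 and 3.92 times in the CD4+Lrig1+ libraries. The TPM of *Tnfrsf4*, *Tnfrsf9*, *Tnfrsf18*, *Tnfrsf1b* and *Tnfrsf8* summed to 192 and 136 in CD4+Lrig1- cells, and to 931 and 961 in CD4+Lrig1+ cells. *Tnfrsf1a*, *Tnfrsf25* and *Fas* together had 190 and 188 TPM in CD4+Lrig1- and CD4+Lrig1+ cells of set 1, and 95.6 and 95.5 TPM in set 2. Their share of the TPM of all 10 receptors was 20.9% and 20.2% in the CD4+Lrig1- libraries and 10.8% and 6.75% in the CD4+Lrig1+ libraries.

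**Figure D3:**
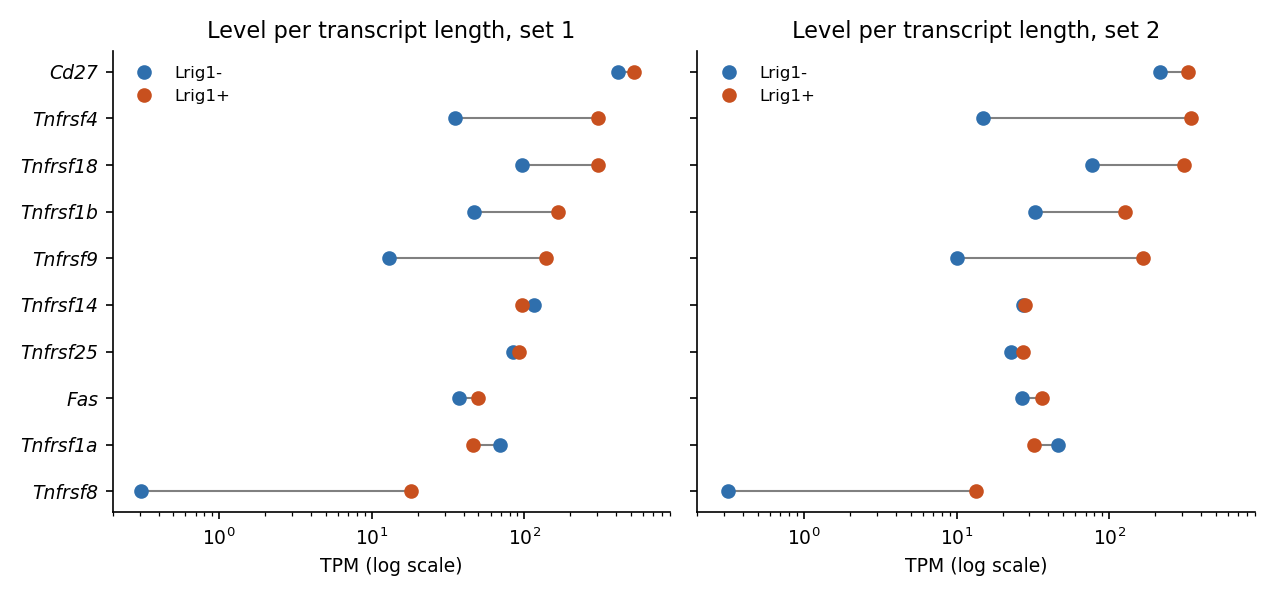
TPM (log axis) of the 10 receptors in set 1 (left) and set 2 (right), with 1 blue point for the CD4+Lrig1- library and 1 orange point for the CD4+Lrig1+ library, joined by a grey line. *Tnfrsf4* moved from 35.0 to 306 TPM in set 1 and from 15.0 to 346 TPM in set 2, while *Tnfrsf1a* is the receptor whose orange point lies left of the blue one by more than a symbol in both sets.

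The counts of *Tnfrsf9* came mostly from transcripts of its downstream starts, the promoter of the last of which is printed above. RefSeq lists 5 *Tnfrsf9* transcripts with 4 starts, the first 7844 bases upstream of the last. The starts at 150927315 and 150927999 together held 89.1% of the *Tnfrsf9* counts in CD4+Lrig1- and 99.5% in CD4+Lrig1+ cells of set 1, and 77.3% and 96.7% in set 2. The last start alone had 359 counts in CD4+Lrig1- and 4405 counts in CD4+Lrig1+ cells of set 1, and 397 and 9729 counts in set 2, not scaled to library size and not tested by start. The most upstream start had 58 of 532 counts and 26 of 6501 counts in set 1, and 0 of 875 and 380 of 14122 counts in set 2. The start at 150925300 had 0 and 9 counts in set 1, and 199 counts (22.7%) in CD4+Lrig1- and 83 counts (0.588%) in CD4+Lrig1+ cells of set 2. Counts are split between transcripts that share exons by estimation, so a few counts at one start are uncertain.

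**Figure D4:**
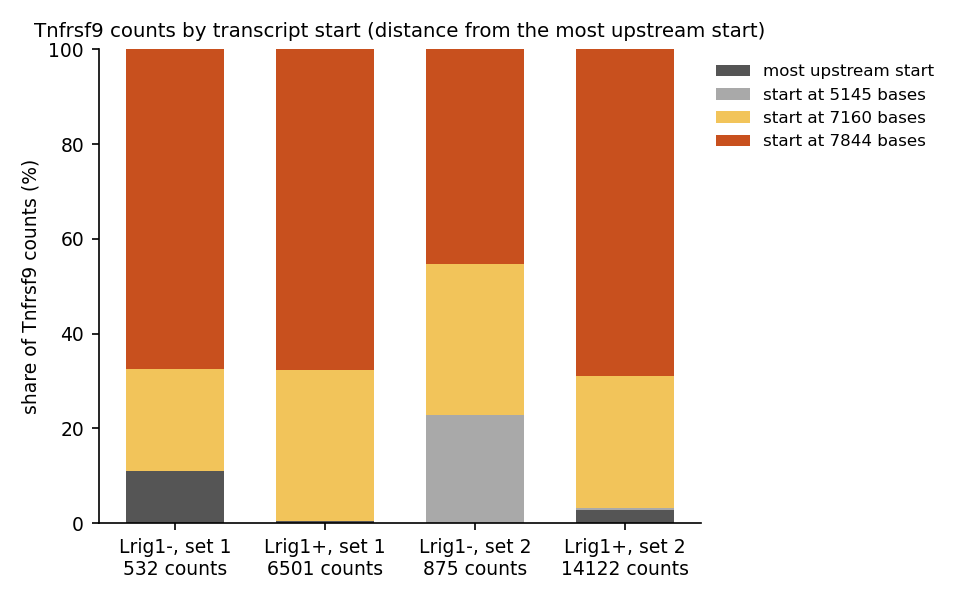
Share of *Tnfrsf9* estimated counts (%) by transcript start in each library, with starts named by their distance in bases from the most upstream one and the total count under each bar. The orange and yellow parts, the 2 downstream starts, make up 89.1% and 77.3% in the CD4+Lrig1- and 99.5% and 96.7% in the CD4+Lrig1+ libraries.

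Several other receptors have 1 start. *Tnfrsf1b*, *Tnfrsf8* and *Tnfrsf1a* each have 1 listed transcript and *Tnfrsf18* has 1 start. *Tnfrsf4* has starts 100 bases apart, and the downstream one held 66.9% and 71.4% of its counts in set 1 and 66.4% and 79.9% in set 2. In *Tnfrsf14* the share of the start at 154928066 varied between libraries, at 52.3% and 20.9% in CD4+Lrig1- and CD4+Lrig1+ cells of set 1 and 0.509% and 10.5% in set 2.

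Ligands of the TNF superfamily were mostly higher in CD4+Lrig1+ cells as well. Of 12 ligands (with the HVEM partner *Btla*), 11 could be tested, and with the table block 7 rose, 1 fell and 3 were not called. Among all genes tested, 14.6% rose and 12.8% fell. *Tnfsf18*, the ligand of GITR, had at most 12 counts in any library and was not tested. *Tnf* had 14.9 and 8.33 CPM in CD4+Lrig1- and 29.8 and 21.2 CPM in CD4+Lrig1+ cells, and *Lta*, lymphotoxin alpha, had 19.3 and 18.5 against 41.2 and 39.3 CPM. *Tnfsf8*, the ligand of CD30, had 62.6 and 46.5 CPM against 99.6 and 107.6 CPM, a log2 fold change of 0.94 ± 0.12 (SE). *Cd70* and *Tnfsf15*, ligands of CD27 and DR3, are among the 7 that rose but had 0 counts in both CD4+Lrig1- libraries. They passed the count filter only through the CD4+Lrig1+ libraries, so their direction was fixed once they were tested. *Cd70* had 13 and 22 counts in the CD4+Lrig1+ libraries, at least 3.99-fold and 6.90-fold above a floor of 3 counts per library, and *Tnfsf15* had 34 and 17 counts, at least 10.4-fold and 5.33-fold above it. *Fasl* was the ligand that fell, from 14.4 and 15.4 CPM to 8.25 and 11.6 CPM. *Btla* (142 and 134 CPM in CD4+Lrig1- and 165 and 141 CPM in CD4+Lrig1+ cells) and *Tnfsf9*, the ligand of 4-1BB (2.61 and 1.48 against 3.56 and 3.69 CPM), were not called (adjusted p = 0.214 and 0.0637 with the table block).

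Of 10 TRAFs, cIAPs and related adaptors, 3 rose, 1 fell and 6 were not called with the table block, where 14.6% of all genes rose and 12.8% fell. *Traf1*, an adaptor that NF-kB induces, rose by 0.96 ± 0.10 (SE) on the log2 scale (128 and 74.0 CPM against 221 and 162 CPM), *Tank* by 0.66 ± 0.07 and *Traf2* by 0.31 ± 0.07. *Traf4* fell, with a log2 fold change of -0.50 ± 0.09 (SE). *Traf3* (167 and 64.2 CPM against 173 and 59.9 CPM) and *Xiap* (137 and 89.3 CPM against 156 and 84.0 CPM) were not called (adjusted p = 0.854 and 0.733 with the table block).

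Genes of death-domain signalling gave 3 that rose, 1 that fell and 6 not called of 10, where 14.6% of all genes rose and 12.8% fell. *Bid* rose by 0.69 ± 0.10 (SE), *Siva1*, whose product binds the tail of CD27, by 0.62 ± 0.14 and *Ripk3* by 0.34 ± 0.08 on the log2 scale. *Cflar*, the gene of the caspase-8 inhibitor cFLIP, had 236 and 131 CPM in CD4+Lrig1- and 196 and 96.6 CPM in CD4+Lrig1+ cells and fell (adjusted p = 0.0155 with the table block). *Casp8* (140 and 179 CPM against 144 and 155 CPM) and *Daxx* (113 and 121 CPM against 98.1 and 106 CPM) were not called (adjusted p = 0.544 and 0.0763 with the table block).

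NF-kB subunits, regulators and targets gave 12 that rose, 1 that fell and 2 not called of 15, against 14.6% and 12.8% of all genes that rose and fell. The median of their mean log2 ratio was 0.58. *Bcl2a1b*, an antiapoptotic target, rose by 1.43 ± 0.11 (SE), *Bcl2l1*, the gene of Bcl-xL, by 1.17 ± 0.10 and *Nfkbia*, the gene of the inhibitor IkBa, by 0.81 ± 0.08 on the log2 scale. *Bcl2a1b* belongs to a family of near-identical genes, so its reads may be split between copies. The subunits *Nfkb2* and *Relb* rose by 0.76 ± 0.08 and 0.69 ± 0.08, while *Rela* (148 and 158 CPM against 156 and 169 CPM) and *Cyld* (242 and 252 CPM against 245 and 218 CPM) were not called (adjusted p = 0.421 and 0.466 with the table block). *Map3k14*, the gene of the kinase NIK that TRAF3 holds back, was the gene that fell, with a log2 fold change of -0.60 ± 0.08 (SE).

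**Figure D5:**
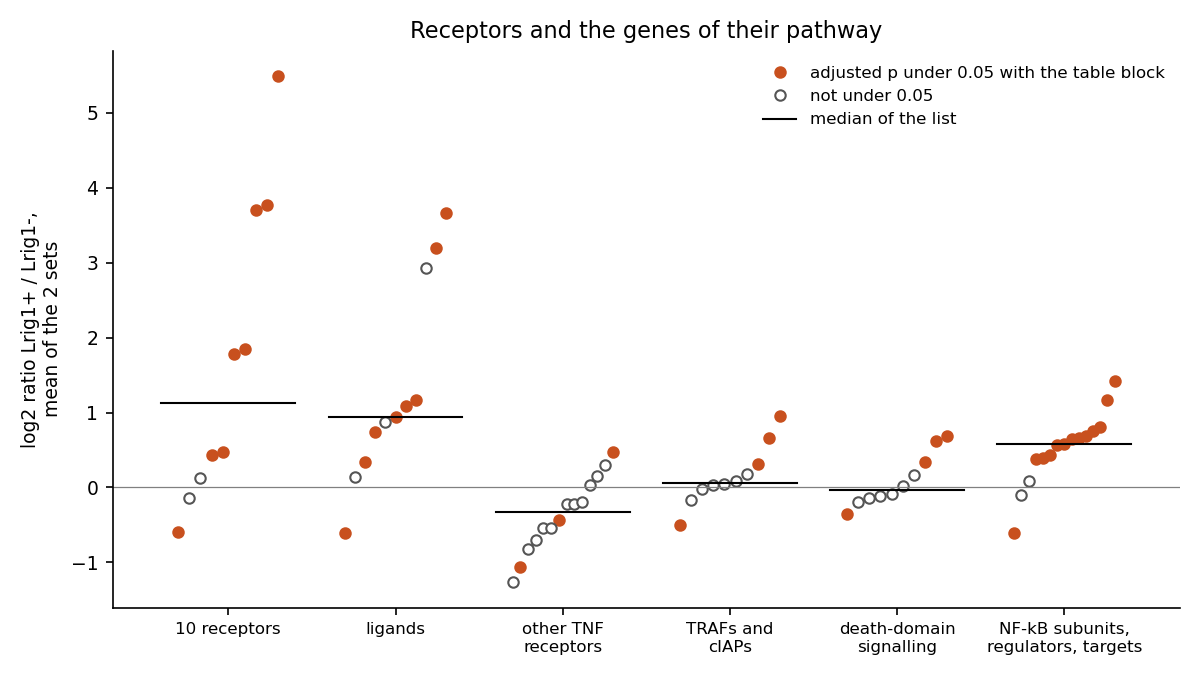
Log2 ratio of CD4+Lrig1+ to CD4+Lrig1- cells, as the mean of the 2 sets, for the 10 receptors and the tested genes of 5 pathway lists, each point 1 gene, filled where the adjusted p with the table block is under 0.05, with a line at each list's median. The medians are 1.13 for the receptors, 0.94 for the ligands, -0.32 for the other TNF receptors, 0.07 for TRAFs and cIAPs, -0.03 for death-domain signalling and 0.58 for NF-kB genes.

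Of 18 other TNF receptors, 14 could be tested, and 1 rose, 2 fell and 11 were not called with the table block. The shares of all genes that rose and fell were 14.6% and 12.8%. *Tnfrsf13b*, the gene of TACI, had 33.0 and 82.0 CPM against 55.6 and 94.3 CPM and rose by 0.47 ± 0.13 (SE) on the log2 scale. *Cd40*, a receptor of B cells and other antigen-presenting cells, had 2.05 and 6.76 CPM against 1.04 and 2.96 CPM and fell, and so did *Relt* (75.6 and 52.1 CPM against 57.9 and 37.6 CPM). The summed B cell markers given above also differed between the libraries, and their part in the values of *Cd40* and *Tnfrsf13b* was not tested. *Tnfrsf22* (36.2 and 33.1 against 31.4 and 28.1 CPM) and *Tnfrsf26* (46.7 and 77.6 against 46.6 and 57.3 CPM) were not called (adjusted p = 0.102 and 0.181 with the table block). *Tnfrsf17*, *Tnfrsf11b*, *Edar* and *Eda2r* had at most 8 counts in any library and were not tested.

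Nearest genes were sought by Euclidean distance in centred log2(CPM + 0.5), among genes with a mean of at least 5 CPM. Nearest to *Tnfrsf8*, the receptor with the highest mean log2 ratio, were *Nrn1*, *Fam160a1*, *Dnah7a* and *Ptpn5*, at 0.584 to 0.627. The offset weighs on these distances, since *Tnfrsf8* had 0.418 and 0.778 CPM in CD4+Lrig1- cells. Log2 ratios in sets 1 and 2 were 5.77 and 5.21 for *Tnfrsf8*, 4.29 and 4.53 for *Nrn1*, and 8.81 and 7.40 for *Dnah7a*. *Nrn1*, which encodes neuritin, had 2.82 and 4.18 CPM in CD4+Lrig1- against 55.9 and 97.5 CPM in CD4+Lrig1+ cells. Nearest to *Tnfrsf1a*, the receptor with the lowest, were *Acp5*, *Sirt1*, *Ckb* and *Acsf2*, at 0.0156 to 0.0740. *Acp5*, the gene of tartrate-resistant acid phosphatase, had 244 and 295 CPM against 164 and 190 CPM.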

How the data were processed

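RNA from CD4+Lrig1+ and CD4+Lrig1- T cells was sequenced as paired-end reads from a stranded mRNA kit. Per the labels and the study's methods, the authors trimmed reads (Trimmomatic 0.38), mapped them to GRCm38 (HISAT2 2.1.0) and quantified transcripts (StringTie 2.1.3b). The authors deposited estimated counts, FPKM and TPM per transcript. These were summed here by gene symbol and the estimated counts rounded. Another table, with 2 libraries in 3 units (6 columns of per-sample values), does not name their group and was not used.

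Counts were filtered by filterByExpr and tested with edgeR 4.0.16 (R 4.3.3) at an adjusted p of 0.05, by group alone and with the table as a term. Alternatives used DESeq2 1.42.0, limma 3.58.1 on log2(FPKM + 1), other scalings and filters, and each library left out. Robust dispersion estimates were added after the data were seen. For ratios between the libraries of a set, the prior count was 2. On data simulated from these libraries, both fits returned the fold changes put in, but by group alone the test called none of the changed genes, and with the table as a term more unchanged genes were called than an adjusted p of 0.05 allows. Depth was 44865070 to 59977951 counts per library, and counts carry counting error beside the spread between libraries.

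All receptors were named. From each pathway list, up to 5 called genes with the largest mean log2 ratio and up to 2 abundant genes not called were eligible to be named, and others are named where a count of 5 or fewer called for it. The receptors and lists were chosen with earlier results of these data known.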

Additional observations from a re-analysis of the deposited data

How the results depend on the processing

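No paired analysis was possible by replicate number because the columns carry no replicate numbers, so the set took its place. Without it, no gene was called by the quasi-likelihood test with DESeq2 size factors, no filter, at least 10 counts in every library, limma or robust dispersion estimates, while the DESeq2 Wald test called 277 genes higher and 43 lower (4 and 0 receptors) and the edgeR exact test 179 and 14 (3 and 0 receptors). With the table block, 2358 genes were higher and 2056 lower, 2208 and 2388 with DESeq2 size factors, 1726 and 1702 in the Wald test, 1304 and 820 with no filter, 1911 and 1016 in limma, each with 7 receptors higher and 1 lower, and 2342 and 2065 with robust dispersion estimates, with 6 and 1. Leaving out 1 library without the table block gave 1 to 88 genes higher, 0 to 2 lower and 0 to 3 receptors higher: 2 receptors when set 1 lost its CD4+Lrig1- library, 1 when it lost its CD4+Lrig1+ library, 0 when set 2 lost its CD4+Lrig1- library and 3 when it lost its CD4+Lrig1+ library. In these fits the group with 1 library is assumed to vary like the other. The log2 fold change of *Tnfrsf25* then ranged from -0.48 to 0.80 and that of *Tnfrsf14* from -0.76 to 0.58, and the cause was not tested. The set 2 log2 ratio of *Tnfrsf14* was 0.032 by library total and 0.034 by FPKM. The other receptors kept their direction under every alternative run. Both sets hold 1 library per group, which limits what either test can resolve.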
